A study of Arabidopsis thaliana with 16 samples.

Results

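The binding of PLETHORA3 (PLT3) and PLETHORA7 (PLT7) was compared on genomic DNA of the Arabidopsis shoot apical meristem (SAM). The peaks of the 4 SAM libraries, 2 with each protein, were merged into 35684 regions of the nuclear genome after 2521 regions that touched a peak of the GFP control had been removed. A region counted as PLT3-only when both PLT3 libraries and neither PLT7 library had a peak in it, as PLT7-only when the reverse held, and as shared when all 4 libraries had one. These rules gave 1019 PLT3-only regions (2.86% of all regions), 1396 PLT7-only regions (3.91%) and 15862 shared regions (44.5%), which together are 18277 of the 35684 regions. The other 17407 regions were called in some other combination, 7780 of them in 1 library, and are members of none of the 3 classes. Within the shared regions the baits were compared by the rank of each peak's fold enrichment in its own library.

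PLT3 and PLT7 are transcription factors of the AP2-domain PLETHORA/AINTEGUMENTA-LIKE (PLT/AIL) family. The study proposes that they steady the position of new organs at the shoot tip by acting on auxin and cytokinin pathways. In DNA affinity purification sequencing (DAP-seq), a tagged protein made outside the plant is mixed with fragments of purified genomic DNA, and the fragments it holds are sequenced. The DNA keeps its methylation but not its nucleosomes or other bound proteins, so a peak shows where the protein can hold naked DNA.

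All libraries came from wild-type Col-0 plants and no group carried a mutation, so the groups differed in the bait and in the tissue that gave the DNA. The baits were 3xFLAG-PLT3 and 3xFLAG-PLT7, with 3xFLAG-GFP as the control for binding to the tag and the beads. SAM DNA came from seedlings grown for 9 days, with about 500 meristems pooled for each replicate. DNA of inflorescence meristems (IM), from plants of 4 to 8 weeks, was used with the same baits and supplied libraries that had no part in choosing the SAM regions. Each group had 2 replicates and each library began with 100 ng of DNA and 15 cycles of amplification. The series holds 16 libraries with 293185 peaks in all, with 3xFLAG-PLT5 as a further bait.

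The PLT3 SAM libraries held 31065 and 23360 peaks and the PLT7 SAM libraries 30292 and 26660, which is the depth the peak lists show. Read numbers were not analysed here. Fold enrichment, the ratio of a peak's signal to its local background, was lower with PLT3, with medians of 2.58 and 2.52 over all peaks against 3.66 and 3.53 with PLT7. For this reason each value was turned into a percentile within its own library before the baits were compared. Over the shared regions the percentiles of the PLT7 replicates had a Spearman correlation of 0.905 and those of the PLT3 replicates of 0.764, while pairs of libraries with different baits lay between 0.742 and 0.812. The PLT3 replicates were thus no more alike than a PLT3 and a PLT7 library. All of these correlations are over the same 15862 regions.

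Sequences under the summits of some regions named below for a SAM difference between baits are printed here. A pair of well-known meristem genes without such a difference is added, so that the binding results can be read against the sequences. Each run shows in capitals the best match to a 16-bp matrix, fitted to shared regions, within 50 bp of the summit, with 6 bases of flanking genome on each side, read in the direction of the matrix. Sequences and coordinates are from the RefSeq copy of TAIR10.1, the build of the peak lists.
JASON, higher with PLT7, chr1:2040200-2040227, plus strand: ggctgaCGATTTTCCCGAGAAAcacgca
AT1G01940, higher with PLT7, chr1:323255-323282, plus strand: ctgtgaCGAGGTTCCCAAGAGTgctgag
TUB3, higher with PLT7, chr5:25184432-25184459, plus strand: ccagatTTCGATTCCCGAGGCTcgagag
CKL2, PLT7-only, chr1:27374036-27374063, minus strand: gatttgCACGCCTTCCAAGACCcatcag
AT1G72940, PLT7-only, chr1:27443082-27443109, minus strand: ccttttCACGCTTCCCAAGAAAcaatgg
Near SRS8, PLT7-only, chr5:12461308-12461335, minus strand: ttcaggAACGAATCCCAAGAAAgctacc
Near AT3G42050, higher with PLT3, chr3:14215567-14215594, plus strand: tctcttTGGGCTTTCCGAAAAGgtatca
Near AT4G06655, higher with PLT3, chr4:3850051-3850078, minus strand: tggcctTACTAAAATCAATGGAgttagt
AT2G19120, PLT3-only, chr2:8287799-8287826, minus strand: tcaaggTACTTCTACCAAGGACgcctca
AT4G39880, PLT3-only, chr4:18504875-18504902, minus strand: accggaAACAAATCCCTAGAAAtcgaca
HP6, shared, chr1:30132998-30133025, minus strand: agtgttCGCTATTCTCTATGCTtcaaat
ANT, shared, chr4:17739505-17739532, plus strand: taagaaCACAGATCCCAACGGAttcaaa
The match passed the threshold, set so that 5% of flanking windows pass, in all 6 printed PLT7 regions, in AT4G39880 and in the 2 shared genes. It stayed below the threshold near AT3G42050, near AT4G06655 and in AT2G19120. The 6-letter word CCAAGA stands in the printed runs of AT1G01940, CKL2, AT1G72940 and the region near SRS8, and in none of the PLT3 runs printed. The printed runs are a selection. Of the 6 strongest PLT7-only regions, 3 hold the word in their run, and all 3 are printed. Of the 6 shared regions with the largest difference towards PLT7, 1 holds it, also printed. The run of a PLT3-only region at MYB74, not printed, holds the word too.

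The single-bait regions ranked lower in their own libraries than the shared regions, and those of PLT3 were the weakest. PLT3-only regions had median fold enrichments of 2.07 in replicate 1 and 2.04 in replicate 2, at percentiles 18.4 and 16.4 of their libraries. PLT7-only regions had medians of 3.37 and 3.28, at percentiles 42.6 and 41.2. Shared regions stood higher, at medians of 2.94 and 2.71 with PLT3 and 4.45 and 3.98 with PLT7, the 61.5th to 69.2nd percentile. Shared regions were also wider, with a median of 492 bp against 344 bp for PLT3-only and 305 bp for PLT7-only regions. A PLT3-only call was therefore mostly a call close to the lower end of the PLT3 lists. The number of single-bait regions depends on single libraries, since leaving out 1 library at a time gave 1526 to 4219 PLT3-only and 1919 to 5216 PLT7-only regions.

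The strongest PLT7-only regions lay in coding or non-coding genes. In the first coding gene by strength, AT5G04310, which encodes a pectin lyase-like protein, a peak in the 5′ UTR stood at percentiles 97.6 and 89.9 of the PLT7 libraries, with fold enrichments of 8.72 and 5.62. In a coding exon of CKL2, a casein kinase 1-like gene, the percentiles were 90.2 and 95.4. No PLT3 library had a peak at CKL2 in either tissue, while the PLT7 IM libraries placed it at percentiles 97.6 and 93.9. In AT1G72940, a gene with a TIR domain of the kind found in immune receptors, a coding-exon peak stood at 95.3 and 87.7. Beside SRS8, a member of the SHI-related family of transcription factors, a peak in a non-coding gene stood at 89.4 and 91.4. This peak lay 4451 bp from the start of SRS8, with 2 protein-coding gene starts within 50 kb on either side. In AT1G76280, a gene with tetratricopeptide repeats, a coding-exon peak stood at 90.5 and 88.8. At AT5G04310, AT1G72940 and AT1G76280 and beside SRS8 both PLT7 IM libraries and 1 PLT3 IM library also had a peak. The strongest PLT7-only region of all lay in a non-coding gene at chr3:12804596-12804950, at 97.5 and 93.6. Its nearest coding gene, AT3G31430, starts 7913 bp away, and 3 protein-coding genes start within 50 kb on either side. With IM DNA the last region was called with both baits, at 68.9 and 78.3 with PLT3 and 95.6 and 96.9 with PLT7, and there it ranked higher with PLT7 (limma, adjusted p = 0.0451). All 6 of these regions held a matrix match and none lay in repeated sequence.

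Of the 6 strongest PLT3-only regions, the first 4 lay between genes on chromosomes 3 and 4. They had 0 to 3 protein-coding genes starting within 50 kb on either side, and none of the 4 held a matrix match. The PLT3-only class as a whole did not share this, with a median of 26 such genes. The median was also 26 over PLT7-only and over shared regions. Regions with at most 10 such genes made up 14.5% of PLT3-only, 12.4% of PLT7-only and 14.5% of shared regions. At chr3:13598025-13598283 the PLT3 percentiles were 99.4 and 99.4. At chr3:14206973-14207307 they were 93.9 and 98, with 99.8 and 97.0 in the PLT3 IM libraries and no peak in the PLT7 IM libraries. The regions at chr4:2934839-2935124 (92.0 and 99.7) and chr3:13800990-13801277 (89.7 and 98) were called in 1 PLT7 IM library each. In 3 of these 4 regions the DNA around the summit was repeated, with a median of 15, 22 and 92 genomic copies for the 31-base words of the summit window. The part of repeated sequence in these peaks was not tested. The other 2 regions lay in coding exons, with 21 and 30 protein-coding gene starts within 50 kb on either side. One was in AT2G19120, a gene for a P-loop nucleoside triphosphate hydrolase, at percentiles 87.5 and 74.5, and the other in AT4G39880, a ribosomal protein L23/L15e gene, at 75.8 and 71.8. AT4G39880 held the one matrix match of the 6. On IM DNA all 4 libraries called the region in AT2G19120, at 45.4 and 91.7 with PLT3 and 41.7 and 46.1 with PLT7. The region in AT4G39880 was called there by both PLT7 libraries, at 37.8 and 50.8, and by 1 PLT3 library, at 39.4.

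In the shared regions the order of peaks was largely common to both proteins, with differences at the edges. The rank difference, the mean percentile of the PLT7 libraries minus that of the PLT3 libraries, had a median of −0.623 and an SD of 14.4, with −25.8 and 22.5 as its 5th and 95th percentiles. Of the 15862 shared regions, 9 ranked higher with PLT3 (0.0567%) and 0 with PLT7 (0%) at an adjusted p below 0.05 with limma on normal scores of the ranks, and 1950 passed an unadjusted p of 0.05, 1040 towards PLT3 and 910 towards PLT7. This split depends on the scale. On the log2 scale of fold enrichment, centred on each library's median, limma called 441 regions towards PLT3 and 727 towards PLT7. It also depends on single libraries: 475 and 1158 regions were called without PLT3 replicate 1, 363 and 167 without PLT3 replicate 2, and 0 and 0 without PLT7 replicate 1. Both PLT3 libraries ranked above both PLT7 libraries in 3879 regions (24.5%), and both PLT7 libraries above both PLT3 libraries in 3057 (19.3%).

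The 9 regions past the threshold all ranked higher with PLT3, and none lay in the window of a protein-coding gene, which runs from 1500 bp before its start to 500 bp after it. At chr3:14215413-14215762, an intergenic region whose nearest coding gene is AT3G42050, the PLT3 percentiles were 96.7 and 98.4 and the PLT7 percentiles 26.5 and 33.9. The rank difference was −67.4 (limma, adjusted p = 0.00459), the furthest from 0 of any shared region. The IM libraries put it at 81.4 and 90.5 with PLT3 and 20.3 and 36.4 with PLT7. At chr4:3849562-3850243, in a non-coding gene with AT4G06655 as the nearest coding gene, the PLT3 percentiles were 96.5 and 96.6 and the PLT7 percentiles 47.1 and 54.7 (adjusted p = 0.036). Here the IM values were alike, 98.4 and 96.5 with PLT3 against 40.6 and 55.2 with PLT7. At chr2:5199434-5200446, whose nearest coding gene AT2G12646 encodes a PLATZ transcription factor, they were 98.2 and 96.8 against 60.8 and 63.8 (adjusted p = 0.0457). At chr1:14721172-14721471, near AT1G39070, they were 99 and 99.5 against 57.6 and 74.9 (adjusted p = 0.00885). The rule that named these regions required groups without overlap, so that trait is no result.

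The other 5 regions had rank differences between −23.0 and −6.62, with all PLT3 percentiles rounding to 99 or more. The strongest by fold enrichment was chr4:3987314-3987655, at 10.2 and 12.9 with PLT3 and 6.57 and 6.90 with PLT7, so that PLT3 was higher here on the raw scale too, although its libraries ran lower as a whole. This region and those at chr4:3950523-3951672 and chr4:3969107-3969434 are neighbours on chromosome 4. Every one of the 9 regions had at most 3 protein-coding gene starts within 50 kb on either side, against a median of 26 over the shared regions. Over the 3879 shared regions with both PLT3 libraries on top the median was 25. Over the 3057 with both PLT7 libraries on top it was 26. None of the 9 held a matrix match, and 6 of the 9 lay in repeated sequence, with up to 23 genomic copies. The part of repeats in these calls was not tested. With regions in repeated sequence dropped from the output of this fit, 3 regions remained past the threshold, and no new fit was run. Of the 9, 7 were called in all 4 IM libraries, and all 7 ranked higher with PLT3 there, by −57.6 to −15.2 percentile points. The IM fit gave a p-value for 5 of these, and all 5 passed its threshold. These are the regions in the upper part of the plot of percentiles by library. All 9 were lost without PLT7 replicate 1 and 3 without PLT7 replicate 2. Ranked by the −log10 p-value of the peak in place of fold enrichment, 3 of the 9 passed. The difference at chr2:5199434-5200446, −1.67 on the normal-score scale, was then −0.0154 (limma, adjusted p = 0.982), and that at chr4:3950523-3951672 went from −1.68 to −0.126 (adjusted p = 0.786).

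**Figure D1:**
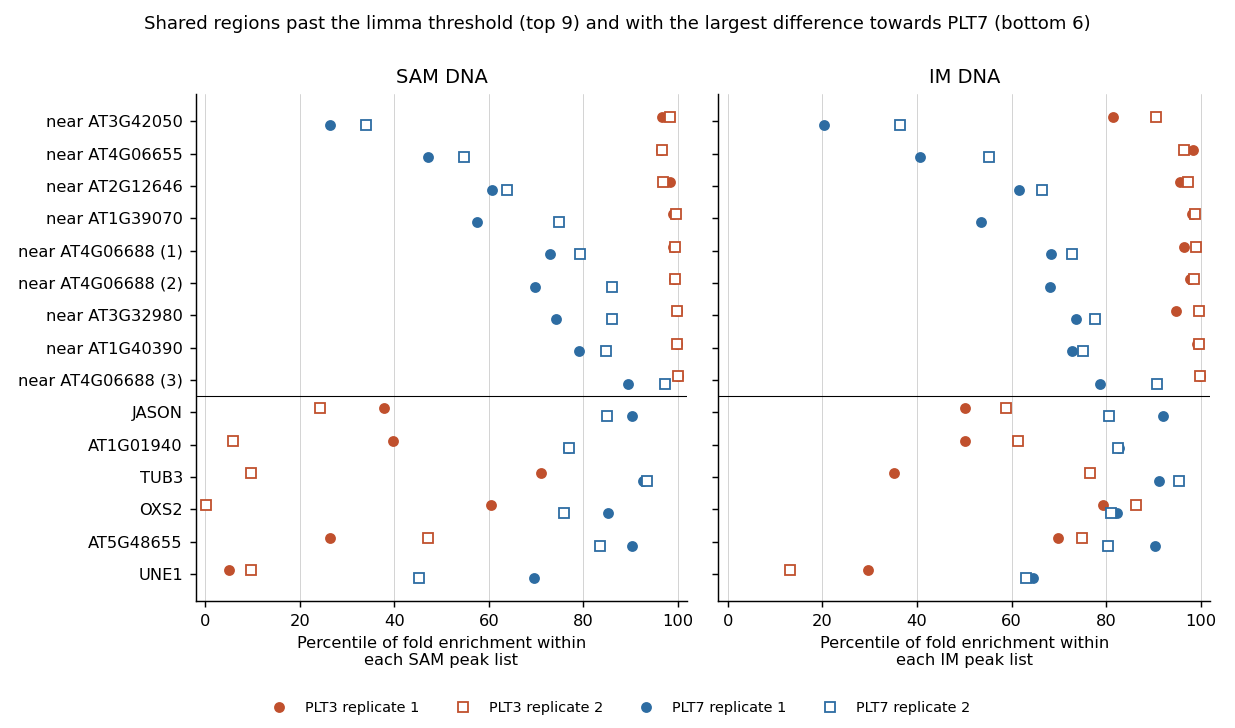
Percentile of fold enrichment within each library, on SAM DNA (left) and IM DNA (right), with 1 row per region and 1 symbol per library. In the 9 upper rows, past the limma threshold, the SAM symbols of PLT3 lie from 96.5 upwards and to the right of those of PLT7, while in the 6 lower rows, named after their values were seen, PLT7 lies to the right on SAM DNA.

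No shared region passed the threshold towards PLT7, so the 6 with the largest rank difference in that direction were chosen after their values were seen and are given as descriptions. All 6 lay inside genes and all 6 held a matrix match. They had 23 to 33 gene starts within 50 kb on either side, around the median of 26 over the shared regions. In the 5′ UTR of JASON, a gene known for its part in the spindles of male meiosis, the PLT3 percentiles were 37.9 and 24.4 and the PLT7 percentiles 90.2 and 85 (rank difference 56.5, adjusted p = 0.0943). The same order held with IM DNA, at 50.1 and 58.8 against 92.0 and 80.7. In the 5′ UTR of TUB3, which encodes a beta-tubulin of microtubules, the PLT3 replicates were far apart at 71.1 and 9.67, and the PLT7 replicates close at 92.7 and 93.6. In a coding exon of AT1G01940, a cyclophilin-like prolyl isomerase gene, the values were 39.7 and 6.0 with PLT3 and 76.8 and 77.0 with PLT7. At AT5G48655, a RING-type gene, they were 26.4 and 47.2 against 90.2 and 83.4, and at UNE1, for a putative intracellular transporter, 5.13 and 9.67 against 69.5 and 45.2. All of these kept the sign of the difference with IM DNA. OXS2, a CCCH zinc finger gene, did not, with 60.5 and 0.180 against 85.2 and 76.0 on SAM DNA and an IM rank difference of −1.14.

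The IM libraries, which the choice of regions did not use, carried much of the SAM pattern. PLT3-only regions were called in 59.96% and 55.9% of cases by the PLT3 IM libraries and in 41.2% and 38.0% by the PLT7 IM libraries. PLT7-only regions were called in 85.4% and 79.8% by PLT7 and in 42.7% and 43.8% by PLT3. Shared regions were called in 93.4% to 98.5% by each of the 4 libraries. In both single-bait classes the libraries of the calling bait lay above both libraries of the other bait, as the plot of IM calls shows. The gap between baits was 18.4 percentage points for PLT3-only and 39.4 points for PLT7-only regions. It shrank to 4.39 and 27.6 points when regions were chosen without PLT7 replicate 1, and to 10.9 and 34.9 points without PLT3 replicate 2. With the 4 SAM lists brought to equal length the PLT3-only gap was 4.52 points. Without PLT3 replicate 1 the PLT7-only gap was 23.2 points.

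**Figure D2:**
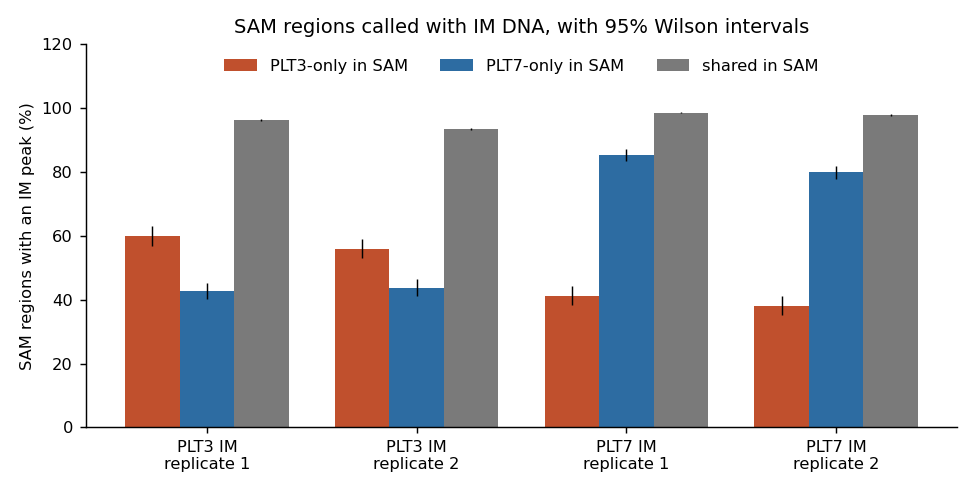
Share of SAM regions with a peak in each IM library (y axis, percent), by the class the region had on SAM DNA, with 95% Wilson intervals that cover counting error only. PLT3-only regions were called more often by PLT3 (59.96% and 55.9%) than by PLT7 (41.2% and 38.0%), and PLT7-only regions more often by PLT7 (85.4% and 79.8%).

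A call with 1 bait alone was less often repeated in full. Of the 1019 PLT3-only regions, 134 (13.2%, 95% Wilson interval 11.2 to 15.4) were again called in both PLT3 and neither PLT7 library on IM DNA, and 23 (2.26%) showed the opposite pattern. Of the 1396 PLT7-only regions, 327 (23.4%, 21.3 to 25.7) kept the pattern and 9 (0.645%) reversed it. All 4 IM libraries called 154 of the PLT3-only regions (15.1%) and 303 of the PLT7-only regions (21.7%). In those regions 76.6% of the PLT3-only class ranked higher with PLT3, at a median rank difference of −11.2, and 69.6% of the PLT7-only class ranked higher with PLT7, at a median of 7.12. For all shared regions called in the 4 IM lists the shares were 49.8% and 50.2%. No IM library called 172 PLT3-only regions (16.9%) and 81 PLT7-only regions (5.80%).

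The rank differences of shared regions carried over in the same way. On IM DNA both PLT3 libraries lay above both PLT7 libraries in 3755 of the 14213 shared regions called there (26.4%), and the reverse held in 3567 (25.1%). Of the regions higher with PLT3 on SAM DNA, 3424 could be read on IM DNA, where 46.3% again had both PLT3 libraries on top and 7.74% had both PLT7 libraries on top. Of the 2790 regions higher with PLT7, 49.6% kept that order and 9.10% had the opposite one. The SAM and IM rank differences had a Spearman correlation of 0.447 over the 14213 regions. A limma fit of the bait-by-tissue interaction called 0 of them, with 636 at an unadjusted p below 0.05 and a smallest adjusted p of 0.998. The libraries of a bait may share its protein preparation, which the sources used here do not describe for each tissue, so preparation and bait cannot be told apart.

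The sequence under the summit differed between the classes. The shared matrix was fitted on chromosomes 1 and 2 and read on chromosomes 3, 4 and 5. A match lay within 50 bp of the summit in 50.8% of 9362 shared regions, in 46.9% of 801 PLT7-only regions (95% Wilson interval 43.5 to 50.4) and in 24.1% of 618 PLT3-only regions (20.9 to 27.6), against about 5% of flanking windows of the same length, 500 bp from the summit. The difference of −22.8 points between the single-bait classes, PLT3-only minus PLT7-only, was −8.97 when the classes were drawn without PLT7 replicate 1. Strong peaks held more matches in every class. Between percentiles 20 and 40 of the calling bait, 23.5% of PLT3-only and 41.9% of PLT7-only regions held a match. The interval of that difference, −27.0 to −9.45 points, did not reach 0. Against shared regions of the same PLT3 strength, PLT3-only regions held fewer matches in each of 3 bands, 22.5% against 32%, 23.5% against 34.1% and 33.8% against 47.1%. PLT7-only regions held more than shared regions of the same PLT7 strength in 4 of 5 bands, from 41.9% against 33.3% to 82.8% against 68.8%, and fewer in the weakest, 21.7% against 26.6%. The 95% intervals of the classes were apart in the 2 weaker bands of PLT3 and, of the 5 bands of PLT7, in the middle one alone, at 54.3% against 42.8%.

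**Figure D3:**
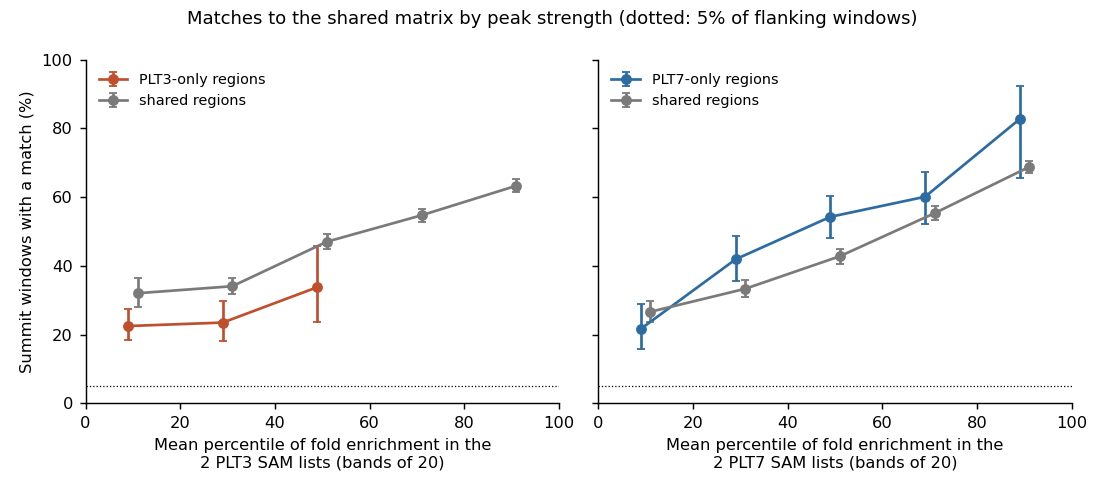
Share of summit windows with a match to the shared matrix on chromosomes 3, 4 and 5 (y axis, percent) against the mean percentile of fold enrichment in the calling bait (x axis, bands of 20 percentile points), with 95% Wilson intervals; the dotted line is the 5% of flanking windows that pass. PLT3-only regions run below the shared regions, from 22.5% to 33.8%, and PLT7-only regions rise from 21.7% to 82.8%.

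Matrices fitted to each class on its own showed the same split. The matrix of PLT7-only regions had a correlation of 0.953 with the shared matrix, letter by letter. That of PLT3-only regions had a correlation of 0.459, and its matches lay in 7.28% of the PLT3-only windows it had not seen, little above the 4.53% of flanking windows. The shared matrix separated PLT3-only windows from flanking ones with an area under the curve of 0.785, against 0.851 for PLT7-only and 0.870 for shared regions. The fit to PLT3-only regions thus gave no matrix of their own that set them apart from flanking DNA.

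The same tendency held over whole libraries. The summits of the PLT3 SAM libraries held a match in 43.8% and 43.8% of cases, and those of the PLT7 SAM libraries in 48.3% and 47.6%. On IM DNA the values were 42.8% and 40.8% with PLT3 and 47.4% and 46.8% with PLT7. In both tissues the baits did not overlap. Among the 5000 strongest summits of each SAM list the shares were 60.2% and 57.2% with PLT3 and 66.6% and 64.8% with PLT7. With 2 libraries against 2, a two-sided exact permutation test cannot go below p = 0.333, the value it gave. Over the 8 libraries, permuted within tissue, the difference of 4.72 points had an exact p of 0.0556, the smallest this design allows, also after adjustment over 3 measures. The paper concludes that both proteins recognise the same motifs, and found most PLT3 peaks among its PLT7 peaks. It also reports a lower share of reads in peaks, its proxy for signal to noise, with PLT3 than with PLT7. Whether that gap accounts for the lower share of matches with PLT3 was not tested.

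Within shared regions, those with a match tended towards PLT7. The 4760 regions with a match on chromosomes 3, 4 and 5 had a median rank difference of 1.25, and the 4602 without one of −3.15. Their median percentiles were 75.4 and 67.9 with PLT3 and 75.9 and 72.6 with PLT7 where there was a match, and 61.9 and 54.2 against 56.3 and 51.9 where there was none. On IM DNA the medians were 1.67 and −2.73. The letters of the match were related to the difference as well. Regions with A at position 12 of the 16-bp match, which 4640 of the 4760 carried, had a mean rank difference 4.62 points above those with another letter. For G at position 13 the value was 3.15 points, for C at position 10 it was 2.51 and for A at position 14 it was 2.23. Since 4721 of the 4760 regions carried C at position 10, its value rests on few regions without it. The same holds for A at position 12. C at position 14 went the other way, at −3.50, but only 118 regions carried it. All of these had the same sign on chromosomes 1 and 2 and on IM DNA. The named letters with a positive value are the most frequent of the shared matrix at positions 10, 12 and 13, while position 14 has G more often than A. The value furthest below 0 was that of C at position 12, −6.74, which only 65 regions carried.

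Words of 6 letters, counted on both strands of the summit window, were ranked by rank difference on chromosomes 1 and 2 and then read on chromosomes 3, 4 and 5. The word CCAAGA (reverse complement TCTTGG) marked regions that tended towards PLT7. The 1184 shared regions with it had a mean rank difference of 1.99 ± 0.416 (SE over regions) and the others of −1.48. On IM DNA the gap was 2.45 points. On the same chromosomes it lay in 15.4% of 801 PLT7-only windows (13.0 to 18), 12.6% of shared windows and 8.41% of 618 PLT3-only windows (6.47 to 10.9), against 6.22% of 20883 flanking windows of the same length. It overlaps positions of the matrix, as the printed runs of CKL2 and AT1G72940 show. The word CCAGCA (reverse complement TGCTGG) had a gap of 2.97 points, and 2.07 on IM DNA, but was not more frequent than in flanking DNA. It lay in 3.12% of PLT7-only windows (2.12 to 4.57), 1.94% of PLT3-only windows (1.11 to 3.36) and 2.46% of shared windows. The share of flanking windows, 2.77%, lay inside both intervals, which overlapped.

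Towards PLT3 the clearest word was CGATGA (reverse complement TCATCG). The 731 shared regions with it had a mean rank difference of −3.05 ± 0.522 (SE), against −0.870 in the others, and the IM gap was −2.74 points. It lay in 9.22% of PLT3-only windows (7.19 to 11.8), 5.62% of PLT7-only windows (4.22 to 7.43) and 7.81% of shared windows, and in 3.93% of flanking windows. The intervals of the single-bait classes overlapped. The word AACGAT (reverse complement ATCGTT) lay in 6.47% of PLT3-only, 3.0% of PLT7-only and 4.2% of flanking windows and had a gap of −1.34 points, and −1.63 on IM DNA. Of the other 6 words picked on chromosomes 1 and 2, 3 kept their sign on the other chromosomes in both tissues. The word ATAAAT (in 14.5% of flanking windows) had gaps of −1.29 points on SAM and −0.889 on IM DNA, ACGATA (2.69%) of −0.721 and −0.954, and AACTGC (3.06%) of 0.666 and 0.338. The word AATAAA (18.1%), picked towards PLT3, had gaps of −0.244 on SAM and 0.488 on IM DNA. The words picked towards PLT7, GCAGGA (2.65%) and TGGGAA (5.21%), had gaps of the opposite sign on SAM DNA, −0.323 and −0.132, and gaps of −0.646 and 1.03 on IM DNA. The ± values treat regions as independent, which neighbouring regions are not.

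PLT3-only summits lay outside genes more often than PLT7-only summits. Summits outside genes, in upstream, downstream or intergenic DNA, made up 35.9% of the PLT3-only class (366 regions), 27.6% of the PLT7-only class (385 regions) and 29.3% of the shared class, with 35.9% of the nuclear genome outside genes by the same rule. The difference of 8.34 points between the single-bait classes had a 95% interval of 4.58 to 12.1. It was 3.06 points without PLT7 replicate 1, and 13.5 points with lists of equal length. Intergenic DNA held 10.6% of PLT3-only and 7.09% of PLT7-only summits, and the first 500 bp downstream of genes 4.61% and 2.65%. Non-coding genes went the other way, with 7.85% and 12.1%. Coding exons held the largest share in each class, 37.0% of PLT3-only, 39.6% of PLT7-only and 40.03% of shared summits against 28.3% of the genome, and the interval of the difference between the single-bait classes, −6.51 to 1.32, included 0. Introns took 10.11% and 12%, 5′ UTR exons 4.22% and 4.80% and 3′ UTR exons 4.91% and 3.94%. These intervals cover counting error only.

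**Figure D4:**
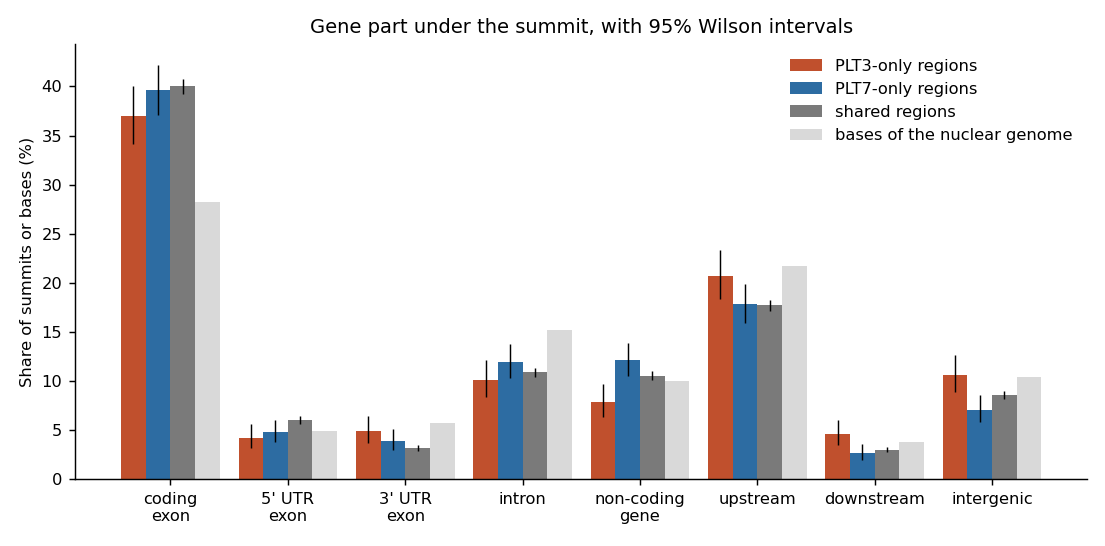
Share of summits in each gene part (y axis, percent) for PLT3-only, PLT7-only and shared regions with 95% Wilson intervals, and the share of bases of the nuclear genome. Intergenic DNA holds 10.6% of PLT3-only against 7.09% of PLT7-only summits, and non-coding genes 7.85% against 12.1%.

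The shared regions leaned the same way, by small amounts. Their median rank difference was 0.493 in coding exons, 0.490 in 5′ UTR exons and 0.550 in introns, and −2.33 upstream of genes, −2.57 downstream and −3.10 in intergenic DNA. On IM DNA the signs were the same, at 0.697, 1.24, 0.491, −0.589, −1.29 and −1.87. In 3′ UTR exons the sign differed between tissues, at −1.67 and 0.379. These medians are small beside the SD of 14.4 over regions. Over all peaks of a library the baits were closer still. Summits outside genes made up 30.5% and 30.7% of the PLT3 SAM lists and 29.6% and 29.9% of the PLT7 SAM lists. The baits did not overlap on SAM DNA, but on IM DNA they did, at 26.6% and 26.8% against 27.2% and 26.7%. Over the 8 libraries the difference was −0.297 points (two-sided exact permutation within tissue, p = 0.333, adjusted p = 0.883 over 11 measures).

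The base composition of the summit windows differed little. The GC content was 38.3% ± 7.54 (SD, 1019 regions) in PLT3-only, 39.4% ± 7.68 (1396 regions) in PLT7-only and 39.8% ± 7.63 (15862 regions) in shared regions. The difference of −1.14 points between the single-bait classes changed to 0.0266 without PLT7 replicate 1. With summits matched within 100 bp it was −0.531, with an interval of −1.08 to 0.0157 that included 0. Repeated sequence, where the 31-base words of the window occur more than once in the genome, made up 1.86% of PLT3-only windows (19 regions), 4.23% of PLT7-only windows (59 regions) and 1.77% of shared windows, against 8.24% of windows placed over the whole genome. Among shared regions the 123 with more than 5 copies had a median rank difference of −4.54 on SAM DNA and −8.30 on IM DNA, against −0.607 and 0.0836 for windows that occur once. PLT7 thus had more single-bait regions in repeated DNA, while the shared regions of many copies ranked higher with PLT3.

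Protein-coding genes were then read through their windows. Of 27444 genes, 557 (2.03%) had a PLT3-only region in the window, 744 (2.71%) a PLT7-only region and 8516 (31%) a shared region. These shares are the background for the gene families below, and 10 genes had both single-bait kinds. In 25 families and pathways with 1012 genes in all, 35 genes (3.46%) had a PLT3-only region, 23 (2.27%) a PLT7-only region and 282 (27.9%) a shared one. Auxin genes, in 6 lists of 161 genes, held 7 with a PLT3-only region (4.35%) and 0 with a PLT7-only region. Cytokinin genes, in 5 lists of 70 genes, held 3 (4.29%) of each kind. The meristem genes, in 4 lists of 69 KNOX, BELL, stem cell, boundary, polarity and floral genes, held no single-bait region and 26 (37.7%) with a shared one. With so few members, no list is called different from the background.

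The PLT/AIL genes themselves were bound mostly by both proteins. Of 7 family members with a window, 4 had a shared region and 1 of these also a PLT3-only region. At ANT, which promotes organ growth, a peak at the gene start stood at percentiles 85.8 and 89.2 with PLT3 and 86.5 and 87.1 with PLT7, and a second one 1188 bp upstream at 93.5 and 84.3 against 84.1 and 73.7. The groups overlapped at the start and, by a narrow margin, did not overlap upstream. At AIL5, also called PLT5, a 5′ UTR peak stood at 92.0 and 90.0 with PLT3 and 96.1 and 90.9 with PLT7. At BBM, also called PLT4 and known for inducing embryos from somatic cells, an intron peak stood at 96.9 and 98 with PLT3 and 90.6 and 82.2 with PLT7 (rank difference −11.0, adjusted p = 0.291). Both PLT3 values were above both PLT7 values, with an IM rank difference of −13.4. A weak PLT3-only peak lay 1356 bp upstream of BBM at percentiles 1.5 and 2.47 and was called in no IM library. PLT2, a regulator of the root stem cell niche, had 3 shared regions. The one 464 bp upstream stood at 82.9 and 80.7 with PLT3 and 58.0 and 57.1 with PLT7, without overlap (rank difference −24.2, adjusted p = 0.369). The one in an intron, at 86.7 and 85.4 against 85.5 and 79.6, overlapped.

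Of the NPY genes, which act in auxin-dependent organ formation, 3 of 5 had a shared region and none a single-bait region. At NPY4 a 5′ UTR peak was strong with both baits, at 95.6 and 98.2 with PLT3 and 96.5 and 96.2 with PLT7 (rank difference −0.522, adjusted p = 0.906). At ENP, also called NPY1, the values were 88.1 and 94.5 against 92.7 and 87.1, which overlap, while with IM DNA both PLT7 libraries were higher, at 97.1 and 95.8 against 65.7 and 70.9. NPY2 had a weaker 5′ UTR peak at 46.5 and 27.3 with PLT3 and 12.7 and 17 with PLT7, without overlap (adjusted p = 0.505), and an IM rank difference of −19.4.

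The AHP genes encode phosphotransfer proteins of the cytokinin pathway, of which HP6, also called AHP6, is an inhibitor. HP6 had a strong peak 704 bp upstream at 96.3 and 94.5 with PLT3 and 91.7 and 98 with PLT7, and 97.1 to 99 in the IM libraries. The groups overlapped, and the rank difference was −0.55. AHP2 had a peak 523 bp upstream at 25.6 and 26 with PLT3 and 58.0 and 63.7 with PLT7 (rank difference 35.0, adjusted p = 0.32), with no overlap between baits. On IM DNA this difference was −4.37. AHP4 had a PLT3-only peak 541 bp upstream at percentiles 14.2 and 35.6, called again with PLT3 alone on IM DNA, at 10.7 and 31.1. The study, which kept only peaks reproducible between replicates, reports no significant peak at AHP4 and no evidence of its direct regulation by PLTs. AHP3 and AHP5 had regions in other combinations.

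The PIN genes encode auxin efflux carriers. PIN5 had a peak 678 bp upstream at 44.9 and 32.9 against 62.8 and 72.6 (rank difference 28.8, adjusted p = 0.39; 21 on IM DNA). PIN3 had a coding-exon peak at 76.0 and 79.4 against 72.4 and 53.9. EIR1, also called PIN2, had a weak PLT3-only peak 667 bp upstream at 6.10 and 6.0, called in both PLT3 and 1 PLT7 library on IM DNA. The plot of family regions gives these by library.

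**Figure D5:**
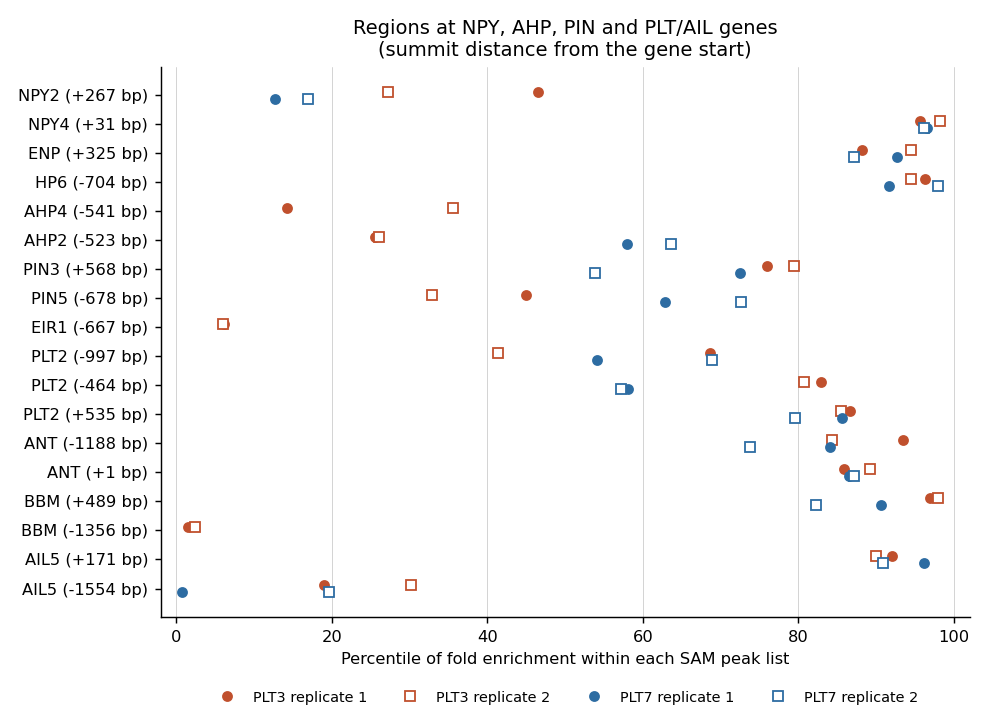
Percentile of fold enrichment within each SAM library (x axis) for single-bait and shared regions at NPY, AHP, PIN and PLT/AIL genes, with the summit's distance from the gene start in base pairs beside the name; rows with PLT3 symbols alone are PLT3-only regions. The symbols of both baits lie close together above 85 at NPY4, ENP, HP6 and the start of ANT, and stand apart at AHP2 and PIN5.

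Other auxin genes with a PLT3-only region had weak peaks. TAA1, an enzyme of auxin synthesis, had one at percentiles 16.4 and 16.4, ARF8, an auxin response factor, at 10.5 and 27.3, IAA2, an Aux/IAA repressor, at 38.9 and 4.50, and PID2, a kinase related to PINOID, at 18.4 and 9.67. Among small auxin up RNAs, AT3G20220 had a PLT3-only peak at 18.4 and 32.9 and AT5G42410 at 40.4 and 31.4. Of these 6 regions, AT3G20220 was the one that both PLT3 IM libraries and no PLT7 IM library called. In the cytokinin pathway the response regulators RR17, at 15.7 and 27.3, and RR1, at 11.6 and 19, had PLT3-only peaks. On IM DNA both PLT7 libraries called these regions, at 2.90 and 3.60 for RR17 and 4.25 and 4.47 for RR1. Only 1 PLT3 IM library called each, at 20.4 for RR17 and 21.6 for RR1.

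PLT7-only peaks in the cytokinin lists ranked higher in their libraries. CKX1, which breaks down cytokinin, had one in its window at 31.1 and 52.9, and IM DNA gave the same pattern, with peaks in the PLT7 libraries alone at 32.8 and 54.0. PUP2 and PUP19, purine permeases of the family that carries cytokinins, had PLT7-only peaks at 45.3 and 38.3 and at 49.4 and 61.3. PUP2 was called with PLT7 alone on IM DNA and PUP19 in no IM library. The peak of PUP2 held the word CCAAGA and a matrix match.

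Among larger families of transcription factors, the WRKY genes, which act in stress and defence, had 3 PLT3-only and 4 PLT7-only genes of 71. WRKY26 had a PLT7-only peak at 75.2 and 70.2, in a coding exon of another gene 525 bp upstream of its start. All 4 IM libraries called this peak, at 50.1 and 53.2 with PLT3 and 77.5 and 83.9 with PLT7. WRKY60 had one at 62.8 and 61.3, called on IM DNA with PLT7 alone. The PLT7-only peaks of WRKY11, at 53.7 and 28.8, and WRKY4, at 14.0 and 9.84, were weaker. WRKY25, WRKY24 and WRKY51 had PLT3-only peaks at percentiles of 6.57 to 38.5. That of WRKY25 lay 245 bp upstream, also in a coding exon of another gene. The MYB genes had 4 PLT3-only and 1 PLT7-only gene of 125, and the NAC genes 2 and 0 of 99. The bHLH list used here, which may not hold the whole family, had 0 and 2 of 22. TT8, the bHLH factor that controls flavonoid pigments, had a PLT7-only peak at 74.6 and 67.5, with its summit in intergenic DNA 1504 bp upstream. All 4 IM libraries called this peak, at 85.3 and 86.7 with PLT3 and 92.2 and 94.0 with PLT7. The other bHLH gene, ILR3, which acts in iron balance, had a PLT7-only peak at 1.87 and 35.2. Ribosomal protein genes had 12 PLT3-only (3.49%) and 11 PLT7-only (3.20%) genes of 344. Of 13 wall-associated kinase genes, 2 had a PLT3-only and 1 a PLT7-only region, and of 10 D-type cyclins, which drive entry into the cell cycle, none had either and 2 had a shared region.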

How the data were processed

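DAP-seq peak lists of 16 libraries were used, 2 for each of 4 baits on SAM and on IM DNA. The submitters' processing notes name fastp 0.23.2, BWA 0.7.17, SAMtools 1.15 and MACS3. The authors called peaks in each library on its own, at a q-value of 0.1 and joining peaks up to 100 bp apart. They then kept peaks reproducible between replicates, a filter that was not applied here. The deposited fold enrichment is the authors' ratio of a peak's signal to its local background, and the deposited −log10 p-values and −log10 q-values come from the same run. The lists hold called peaks alone, so a missing peak can be one just under the threshold.

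Peaks of the 4 SAM lists were merged where they overlapped by at least 1 bp, without organelle DNA and without regions touching a GFP SAM peak. A library's highest fold enrichment in a region became a percentile within that library and, for the test, a normal score. Scores were compared with limma 3.58.1 (R 4.3.3) with a trend, without a replicate block, and with Benjamini-Hochberg adjustment at 0.05 over all shared regions. The test was checked on simulated data. The study describes replicates as separate pools of meristems, and p-values measure only the spread between these libraries. Gene parts were read at the summit from the RefSeq annotation, with coding exons first, then UTR exons, introns, non-coding genes, 1500 bp upstream, 500 bp downstream and intergenic DNA. For each 16-bp matrix up to 600 windows of chromosomes 1 and 2 served for the fit. All intervals are 95% intervals for counting error alone. Python 3.11.15, numpy 2.4.6, pandas 2.3.3, scipy 1.17.1 and matplotlib 3.10.9 were used.

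Named regions are the 6 in each direction with the largest rank difference past the limma threshold without overlap of the groups, the 6 PLT3-only and 6 PLT7-only regions of highest mean percentile, the NPY, AHP, PIN and PLT/AIL genes, and genes of other lists with a single-bait region as examples. The other 3 regions past the threshold and the 6 PLT7-leaning regions were named after their values were seen. The members, lists and tests were chosen with earlier results of these data known. Names not matched to the annotation are not analysed here: 1 of 8 PLT/AIL, 1 of 25 auxin response factor, 1 of 24 cytokinin synthesis and breakdown, 3 of 21 purine permease, 2 of 26 KNOX, BELL and stem cell, and 2 of 21 flowering names. One further gene of the named lists is not reported here.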

Additional observations from a re-analysis of the deposited data

Results flagged for a closer look

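Peaks of the 3xFLAG-PLT5 libraries on IM DNA, a bait that none of the comparisons above used, were found at SAM regions of PLT3 and PLT7 more often than peaks of the GFP libraries on IM DNA. Shared regions were called in 42.2% and 40.3% by the PLT5 IM replicates, against 5.08% and 3.34% by the GFP IM replicates. PLT7-only regions were called in 14.2% and 11.5%, against 4.01% and 2.72%. PLT3-only regions were called in 5.99% and 4.81%, against 4.02% and 2.65%, where the lower PLT5 value lay close to the higher GFP value. Regions that touched a GFP peak on SAM DNA had been removed beforehand, and the GFP shares are those of the regions left. On SAM DNA the PLT5 replicates called 29.8% and 18.9% of shared, 6.30% and 2.15% of PLT7-only and 2.65% and 1.57% of PLT3-only regions.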

How the results depend on the processing

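Across the settings other than leaving out a library, the counts of PLT3-only (988 to 1287), PLT7-only (1273 to 1887) and shared regions stayed within 1.5 times of the main ones. Leaving out 1 library gave 1526 to 4219 PLT3-only and 1919 to 5216 PLT7-only regions, the highest without PLT3 replicate 2 (4219) and PLT3 replicate 1 (5216). The count of list genes with a single-bait region, 57, became 111 to 144. The gene-part difference of 8.34 points was 13.5 with equal lists and 3.06 to 6.47 without 1 library, the motif difference of −22.8 points −14.5 at a threshold of 1% of flanking windows and −26.5 to −8.97, and the GC difference of −1.14 points −0.531 with summits matched within 100 bp and −1.29 to 0.0266, each lowest in size without PLT7 replicate 1. The IM gap of PLT3-only regions (18.4 points) was 11.2 with summits matched within 100 bp, 4.52 with equal lists, 13.9 between percentiles 20 and 40, and 4.39 to 15.6 without 1 library. That of PLT7-only regions (39.4 points) was 29.9, 40.7, 34.8 and 23.2 to 34.9. The limma counts towards PLT3 and PLT7 (9 and 0) were 4 and 0 ranked by −log10 p, 13 and 6 with ranks among shared regions only, 441 and 727 on the log2 scale, 16 and 0 with GFP regions kept, 3 and 0 without repeated windows, and 0 to 475 and 0 to 1158 without 1 library, where the lone replicate is assumed to vary like the other bait. With the replicate number as a block they were 98 and 122, but the labels do not say that equal numbers pair libraries, and the replicate deviations of the baits had a correlation of 0.0345. None of the 9 shared regions past the threshold or the 6 named towards PLT7 changed direction, although OXS2 gave no value at a q-value of 0.01 or with summits matched within 100 bp. The other named regions were not refitted. For the limma counts, repeated windows were dropped from the output of the main fit, and no new fit was run. The settings on repeated windows and the band of percentiles were chosen after seeing the data. What the peak lists cannot show is signal under the calling threshold, and the cause of these changes was not tested.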

Other observations

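Both PLT7 SAM libraries and 1 PLT3 SAM library called 4343 regions, of which 3820 lacked PLT3 replicate 2, the shortest of the 4 lists, and 523 lacked PLT3 replicate 1. Both PLT3 libraries and 1 PLT7 library called 1947 regions, of which 1440 lacked PLT7 replicate 2 and 507 lacked PLT7 replicate 1. A further 3337 regions were called in 1 replicate of each bait, 4389 in a single PLT3 replicate and 3391 in a single PLT7 replicate. One of the regions with a peak in 3 lists lay 458 bp upstream of BBM, with percentiles of 38.8 in PLT3 replicate 1 and 41.0 and 48.2 in the PLT7 libraries. On IM DNA all 4 libraries called it, but in PLT3 replicate 1 through a wide peak that also covers the BBM intron region, so its IM ranks are not compared. A separate fit over the IM libraries tested 18171 regions and placed 40 higher with PLT3 and 88 higher with PLT7 (limma, adjusted p below 0.05).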
